A study of Homo sapiens with 14 samples.

Results

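GATA3 chromatin immunoprecipitation sequencing (ChIP-seq) left 2061 genomic regions where a peak was called in every library except those of untagged wildtype GATA3. The regions were chosen by the calls themselves. Overlapping peaks of all 12 lists, 433307 in number, were merged wherever they shared at least 1 bp, which gave 78999 regions. A region was kept when all 10 libraries of the other 5 groups had a peak in it and neither untagged wildtype library did. The 2061 regions were 2.61% of all merged regions. Because the calls chose them, the absence of a peak in untagged wildtype and its presence elsewhere are not findings.

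All cells were of the established line MDA-MB-231, from a triple-negative breast cancer, and were harvested on day 3 without treatment. All libraries were made with an antibody against GATA3, with or without the tag. The 6 groups of 2 libraries each were wildtype GATA3 (WT), the point mutants p.A442M and p.G444E, and the same 3 forms with FLAG at the C-terminus (WT-FLAG, A442M-FLAG and G444E-FLAG). Per the design text, the tag stabilises GATA3 protein whatever the mutation. How the forms were introduced, and whether a group is 1 clone or its replicates separate cultures, is not given in the sources used here. Samples with an empty vector, 2 in number, were not analysed here, and peak lists hold no expression from which the cell type could be checked.

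GATA3 is a zinc-finger transcription factor that binds DNA at the core letters GATA. It is a defining regulator of the luminal cells of the mammary gland and of T helper cells, and its gene is recurrently mutated in breast cancer. Both point mutations lie near the C-terminal end of the protein, beyond the zinc fingers. A ChIP-seq peak is a stretch where antibody-captured fragments pile up over background. Fewer cells with bound GATA3 and less binding in each cell cannot be told apart in such a list.

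Few of the regions reached a promoter, and 4 of the promoter windows that did are printed because their letters hold the motif that GATA factors are known for. The motif was searched as AGATAA or, with the last base changed, AGATAG, and with the first base changed as TGATAA or, with both bases changed, TGATAG, on both strands and with overlapping matches allowed. Capitals mark the matches. The sequences run 5′ to 3′ on the gene's strand, from 250 bases before to 50 bases after the annotated start, and come from RefSeq, build GRCh38.p14.
SYNRG (chr17:37609369-37609668, minus strand): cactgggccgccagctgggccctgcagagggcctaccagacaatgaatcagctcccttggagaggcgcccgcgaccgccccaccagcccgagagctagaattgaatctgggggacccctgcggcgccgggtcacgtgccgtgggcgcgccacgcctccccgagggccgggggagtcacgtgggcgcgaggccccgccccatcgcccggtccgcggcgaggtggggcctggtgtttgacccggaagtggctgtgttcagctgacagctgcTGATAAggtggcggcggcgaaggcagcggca
MIR302CHG (chr4:112648654-112648953, minus strand): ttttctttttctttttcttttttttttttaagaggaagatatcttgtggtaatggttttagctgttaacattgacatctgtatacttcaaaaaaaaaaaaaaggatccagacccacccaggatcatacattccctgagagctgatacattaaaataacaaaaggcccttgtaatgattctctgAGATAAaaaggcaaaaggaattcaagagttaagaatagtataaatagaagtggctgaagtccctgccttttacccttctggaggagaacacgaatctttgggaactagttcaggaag
DLGAP1-AS6 (chr18:3652864-3653163, plus strand): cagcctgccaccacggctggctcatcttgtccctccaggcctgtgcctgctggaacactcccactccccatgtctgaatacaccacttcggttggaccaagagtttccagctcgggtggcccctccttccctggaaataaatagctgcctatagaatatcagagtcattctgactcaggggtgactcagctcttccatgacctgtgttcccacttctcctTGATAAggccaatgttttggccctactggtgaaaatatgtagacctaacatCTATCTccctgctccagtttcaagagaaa
CTCF (chr16:67562276-67562575, plus strand): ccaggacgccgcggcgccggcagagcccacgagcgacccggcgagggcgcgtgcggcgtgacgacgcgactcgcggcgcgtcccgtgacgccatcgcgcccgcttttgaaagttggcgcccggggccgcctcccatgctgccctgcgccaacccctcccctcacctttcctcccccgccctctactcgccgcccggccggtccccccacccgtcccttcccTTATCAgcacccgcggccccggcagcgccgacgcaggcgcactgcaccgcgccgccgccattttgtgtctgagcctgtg
SYNRG encodes a partner of the clathrin adaptor AP-1, and CTCF encodes the zinc-finger protein that organises chromatin loops. MIR302CHG is the host gene of the miR-302 cluster, and DLGAP1-AS6 is a noncoding antisense gene. The SYNRG window lay in its region with 265 of its 300 bases, and the other 3 windows lay wholly inside theirs. A match in these letters is a description and not a binding site.

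In all, the regions overlapped 44 promoter windows, 0.125% of the 35116 RefSeq windows, and 35 regions did so (1.70%, 95% Wilson interval 1.22% to 2.35%). Of regions called in all 12 libraries, 3.36% overlapped a window, and of all merged regions 4.32%. The motif was in 17 of the 44 windows (38.6%, 25.7% to 53.4%). It was in 184 of the 479 windows over regions called in all 12 libraries (38.4%) and in 8769 of all 35116 windows (24.97%). Thus the windows over regions absent from untagged WT held the motif at nearly the share seen over regions common to all libraries. These intervals cover counting error only, and neighbouring windows of 1 gene share sequence.

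Absence from untagged WT was by far the most frequent way for a region to be absent from 1 group alone. The count was 2061 for WT, 170 for A442M-FLAG, 71 for G444E, 19 for G444E-FLAG, 5 for A442M and 3 for WT-FLAG. For WT, 15106 regions were called in all 10 other libraries, and 13.6% of them were in neither WT list (13.1% to 14.2%). The same share was 1.45% for A442M-FLAG, 0.616% for G444E, 0.169% for G444E-FLAG, 0.0455% for A442M and 0.0271% for WT-FLAG. The untagged WT lists were 2 of the 3 shortest, with 28890 and 25248 peaks. The G444E lists had 31200 and 26926 peaks, and the other 8 lists had between 30026 and 51694. The WT lists also held more peaks on sequences other than the numbered chromosomes, X and Y, 110 and 84, than the other 10 lists, with 16 to 75. Read depth is unknown, and the part of list length and of the peaks on such sequences in the calls was not tested beyond the following. When each list was trimmed to its 25248 highest scores, 1162 regions met the same rule, against 492 for A442M-FLAG and 5 to 19 for the other groups. Of the 1162, 1076 overlapped 1 of the 2061 regions.

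**Figure D1:**
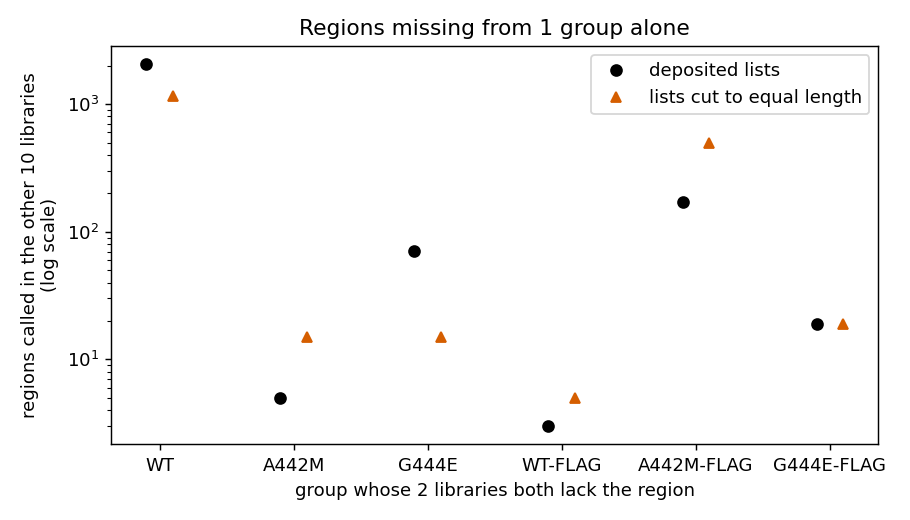
Number of regions called in all 10 libraries of the other groups and in neither library of the group on the horizontal axis (log scale), from the deposited lists (circles) and from lists trimmed to equal length (triangles). Untagged WT stands at 2061 and 1162, above each of the other groups at both settings.

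The set is also the overlap of a set from each replicate number. The 5 other replicate 1 libraries all called 5348 regions that WT replicate 1 did not, and the 5 other replicate 2 libraries all called 4762 that WT replicate 2 did not. The 2061 regions are those in both sets, 38.5% of the first set and 43.3% of the second. A further 2112 regions were called in all 10 other libraries and in 1 WT library, in replicate 1 for 1252 and in replicate 2 for 860.

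The regions ranked higher among the peaks of the tagged libraries than among those of the untagged mutants, and highest in A442M-FLAG. The deposited score of each peak was ranked within its own list and given as a percentile, 100 being the highest. The median percentile of the 2061 regions was 50.4 and 49.5 in the A442M libraries and 51.5 and 50.4 in the G444E libraries. It was 65.3 and 61.1 in G444E-FLAG, 72.3 and 71.3 in WT-FLAG, and 82.9 and 81.8 in A442M-FLAG. The regions were therefore middling peaks of the untagged mutants and well above the middle of the tagged lists. The group means of these medians were 82.3 ± 0.754 in A442M-FLAG, 71.8 ± 0.683 in WT-FLAG, 63.2 ± 3.03 in G444E-FLAG, 51.0 ± 0.748 in G444E and 49.9 ± 0.651 in A442M (SD, n = 2 each). The lower G444E library (50.44) was just above the higher A442M library (50.40), and the other neighbours in that order were further apart. In A442M-FLAG, 1329 (64.5%) and 1303 (63.2%) of the regions were at or above percentile 75 of the list, against 229 to 298 in the 4 untagged mutant libraries.

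Lists of different length put the same peak at different percentiles, so the scores were also ranked against the 10933 regions called in all 12 libraries, which are the same regions in each library. On this scale the median was 9.45 and 9.95 in A442M, 17.4 and 19.6 in G444E, 23.3 and 26.7 in G444E-FLAG, 30.4 and 32.9 in WT-FLAG, and 52.5 and 56.2 in A442M-FLAG. No 2 groups overlapped, and A442M now lay below G444E. Only in A442M-FLAG did the regions rank at the middle of the common regions or above it. The 2112 regions called in 1 WT library had medians of 15.2 and 14.7 in A442M and 41.0 and 41.2 in A442M-FLAG, and 10.9 and 10.6 in WT where it called them.

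**Figure D2:**
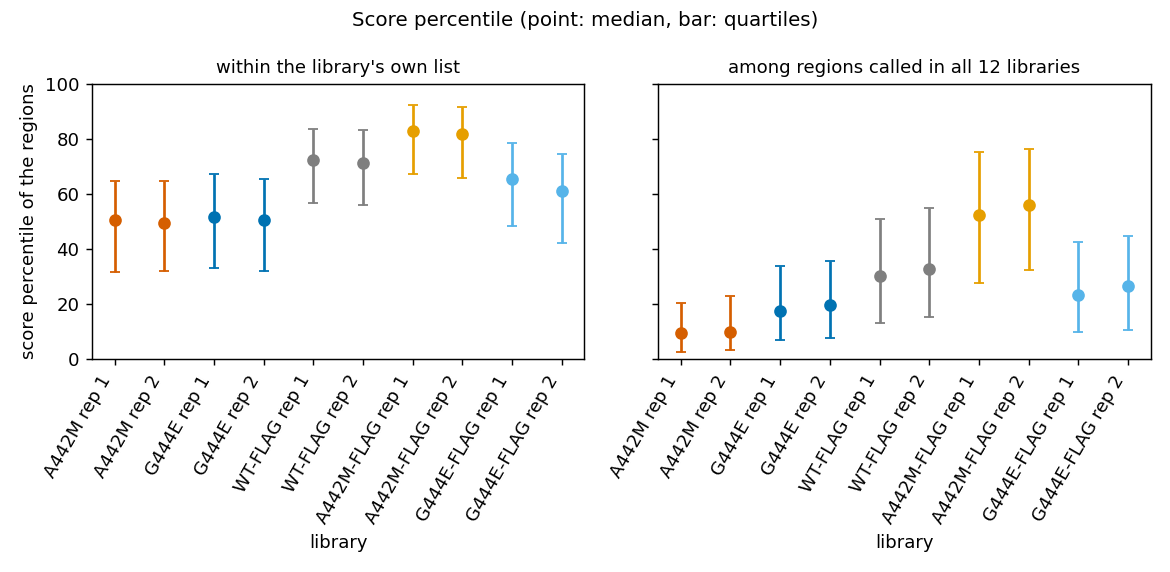
Score percentile of the 2061 regions in each of the 10 libraries that called them, within the library's own list (left) and among the regions called in all 12 libraries (right). Points are medians and bars run between the quartiles over regions. The A442M-FLAG libraries are highest in both panels, and the untagged mutants are lowest.

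Most single regions also ranked highest in A442M-FLAG. Ranked against the common regions, 1708 of the 2061 (82.9%) had their highest mean percentile in A442M-FLAG, 150 (7.28%) in WT-FLAG, 135 (6.55%) in G444E-FLAG, 54 (2.62%) in G444E and 14 (0.679%) in A442M. A442M-FLAG was also the highest of the 5 groups at 29.6% of the regions called in all 12 libraries and at 64.7% of those called in 1 WT library. The lowest group was A442M at 1488 regions (72.2%) and G444E at 367 (17.8%).

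Tagged libraries of a form were set against its untagged libraries on the same scale. Both A442M-FLAG libraries ranked above both A442M libraries at 1835 regions (89.0%) and below both at 11 (0.534%). At regions called in all 12 libraries these shares were 29.1% and 27.8%. The scale itself spreads each library's ranks evenly over those common regions, which tends to balance above and below there. The near balance of their shares, here and below, is therefore not a finding. Both G444E-FLAG libraries ranked above both G444E libraries at 679 regions (32.9%) and below both at 119 (5.77%), beside 14.6% and 14.4% at regions called in all 12. The 2112 regions called in 1 WT library leaned the same way. Their shares above and below were 67.4% and 2.32% for A442M-FLAG against A442M, and 21.9% and 7.62% for G444E-FLAG against G444E. All 6 tagged libraries ranked above all 4 untagged mutant libraries at 411 regions (19.9%), beside 319 of the common regions (2.92%). The evenly spread ranks bear on that common share too, and regions called in 1 WT library were not counted this way.

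Forms were then compared within a tag state. Both A442M-FLAG libraries ranked above both WT-FLAG libraries at 1310 regions (63.6%) and below both at 72 (3.49%), where the common regions gave 20.5% and 20.6%. Without the tag, both G444E libraries ranked above both A442M libraries at 950 regions (46.1%) and below both at 160 (7.76%), where the common regions gave 22.3% and 21.7%. The 2112 regions called in 1 WT library again leaned the same way, with 37.5% and 5.59% for the tagged pair and 34.8% and 8.38% for the untagged pair. Since libraries with the same replicate number ranked the regions more alike, each library was also set against the one of its own number. A442M-FLAG was then above A442M in both numbers at 94.4% of the regions and below in both at 0.970%, G444E-FLAG above G444E at 50.7% and below at 12.2%, A442M-FLAG above WT-FLAG at 76.3% and below at 6.21%, and G444E above A442M at 60.7% and below at 12.4%. The common regions gave 41.0% above and 39.4% below, 30.4% and 29.99%, 34.0% and 36.2%, and 37.1% and 35.1% in the same order. The 2112 regions called in 1 WT library gave 81.5% and 4.69%, 41.4% and 16.7%, 57.6% and 12.7%, and 53.0% and 16.2%. This condition is easier to meet than the one on all 4 libraries, so its shares must be at least as high. These are counts over regions of the same libraries and carry no test, since regions are not replicates.

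The regions spanned the whole range of strength. The lowest of a region's 10 own-list percentiles had a median of 30.8 (quartiles 14.5 and 50.3). In 523 regions (25.4%) no calling library ranked the region below 50, and in 370 (18.0%) at least 1 ranked it below 10. The distance between a region's highest and lowest percentile had a median of 48.4. Across the 2061 regions, Spearman's rho between the 2 replicates of a group was 0.663 to 0.865, a description over regions that share libraries. Between libraries of different groups it was 0.588 to 0.832 for the 20 pairs with the same replicate number and 0.486 to 0.731 for the 20 pairs with different numbers. In all 10 pairs of groups both same-numbered values were above both others, and 8 of the 20 same-numbered values were above that of the replicates of 1 or both of their groups. What a replicate number stands for is not given in the labels, and its part in the ranks was examined only by comparing libraries within a number, as above.

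The share of regions absent from untagged WT was higher where the regions were weaker in the other libraries. Of the 1242 regions called in all 10 other libraries whose lowest percentile was under 10, 370 (29.8%) were in neither WT list. The share was 16.3% for a lowest percentile of 40 to 50, 4.63% for 70 to 80, and 0.787% (10 of 1271) for 90 and above. For A442M-FLAG it went from 3.66% (34 of 930) in the weakest class to 0 of 1021 in the strongest, and for G444E it was 3.87% (39 of 1009) in the weakest class. The WT share exceeded that of each other group in every strength class.

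**Figure D3:**
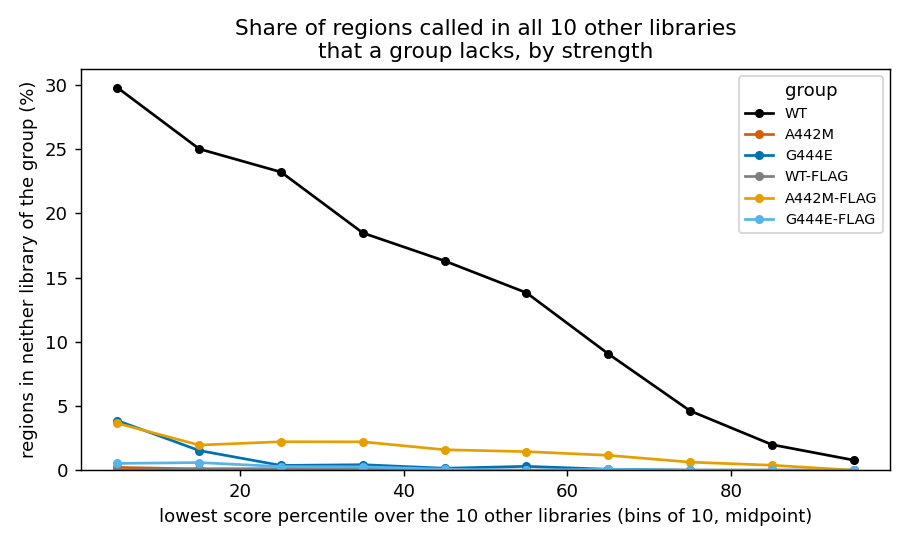
Share of regions, among those called in all 10 libraries of the other groups, that neither library of a group called, against the lowest score percentile over those 10 libraries in classes of 10. The WT line falls from 29.8% to 0.787%, and the other 5 lines start at 3.87% or lower.

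Distances from the regions to untagged WT peaks varied widely. The nearest peak of either WT list was a median of 13777 bp away. It was within 0.2 kb of 2 regions, within 1 kb of 77 (3.74%, 3.00% to 4.64%), within 5 kb of 516 (25.04%) and within 50 kb of 1729 (83.9%). Regions absent from A442M-FLAG alone had an A442M-FLAG peak within 1 kb in 20 of 170 cases (11.8%). For regions absent from 1 other group alone, a peak of that group was as near in 6 of 71 for G444E (8.45%), in 1 of 19 for G444E-FLAG (5.26%), and in none of the 5 for A442M and the 3 for WT-FLAG. A WT peak within 1 kb was thus the exception for the set.

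Peak names in each list were numbered in genome order with gaps. A number missing between the WT peaks on both sides of a region thus marks a numbered peak left out somewhere between them, not necessarily at the region. Of 2060 regions with WT peaks on both sides, 1238 (60.1%, 58.0% to 62.2%) had no missing number in either WT list, 686 (33.3%) had one or more in 1 list and 136 (6.60%) in both. In WT replicate 1 the share with a missing number was 24.7%, beside 23.8% of all regions absent from both WT lists. In replicate 2 it was 21.8% beside 19.2%. Between neighbouring WT peaks in general, missing numbers occurred in 10.8% and 9.03% of pairs. A region without a WT peak falls more readily into a long interval between WT peaks than into a short one, so these pairs are not a like reference. The 23.8% and 19.2% are the nearer reference, and the set's shares were close to them. A missing number in either list was found for 47.5% of the regions with the lowest ranks and 33.9% of those with the highest, the set being divided into 4 by the lowest percentile.

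The strongest regions were near genes of many functions. Percentiles of single regions, here and below, are within each library's own list, so list length bears on their order between libraries. By the lowest percentile, the highest lay inside AOPEP, an aminopeptidase gene, at chr9:94742922-94744696 (coordinates here and below are hg38). Its percentiles were 96.4 and 95.9 in A442M, 99.1 and 98.7 in G444E, 99.8 and 99.8 in WT-FLAG, 99.97 and 99.97 in A442M-FLAG and 99.7 and 99.5 in G444E-FLAG. The deposited scores behind them were 146.9 and 131.4 in A442M, 238.6 and 196.4 in G444E, 359.1 and 343.4 in WT-FLAG, 554 and 486 in A442M-FLAG and 312.8 and 255.9 in G444E-FLAG. All 6 tagged libraries were above all 4 untagged ones, and the nearest WT peaks were 18097 bp away in replicate 1 and 38563 bp in replicate 2, with no missing number between them. The next region, at chr1:115536164-115538314, lay beyond 100 kb of any protein-coding gene end and had percentiles of 96.4 and 94.3 in A442M, 95.5 and 95.6 in G444E, 98.7 and 99.3 in WT-FLAG, 99.8 and 99.8 in A442M-FLAG and 98.9 and 98.3 in G444E-FLAG.

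The region 1983 bp from SIGLEC5, a sialic acid-binding receptor of immune cells, at chr19:51631944-51632824, had percentiles of 95.4 and 94.2 in A442M, 95.2 and 95.7 in G444E, 98.5 and 98.4 in WT-FLAG, 99.7 and 99.6 in A442M-FLAG and 98.2 and 97.2 in G444E-FLAG. At chr6:17389142-17391024, near CAP2, an actin regulator, they were 92.9 and 91.8 in A442M, 96.6 and 94.0 in G444E, 99.5 and 98.6 in WT-FLAG, 99.9 and 99.7 in A442M-FLAG and 98.4 and 98.2 in G444E-FLAG. At chr17:1635744-1636720, inside the scavenger receptor gene SCARF1, they were 91.1 and 92.9 in A442M, 93.8 and 91.9 in G444E, 99.6 and 99.3 in WT-FLAG, 99.9 and 99.9 in A442M-FLAG and 98.7 and 98.1 in G444E-FLAG. In each of the 3 the untagged mutant libraries were lowest and A442M-FLAG highest, without overlap between tagged and untagged. The WT lists had no peak nearer than 37711 bp at SIGLEC5, 6827 bp at CAP2 and 13057 bp at SCARF1. Between the flanking WT peaks, 2 numbers were missing in replicate 1 at CAP2 and 1 in each replicate at SCARF1. No number was missing at SIGLEC5.

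The region near PITX1, a homeodomain transcription factor gene, lay 23780 bp from the gene's end at chr5:135058059-135059079, with percentiles of 88.6 and 92.8 in A442M, 92.9 and 93.9 in G444E, 98.0 and 98.1 in WT-FLAG, 98.3 and 98.9 in A442M-FLAG and 95.02 and 96.4 in G444E-FLAG. The region at chr6:42696531-42697656, 495 bp from an end of the photoreceptor tetraspanin gene PRPH2, was 1 of 2 among the 25 highest that lay within 1 kb of a gene end, beside that of CREB3L2, a membrane-bound bZIP factor. At PRPH2 the percentiles were 87.9 and 88.3 in A442M, 90.6 and 94.6 in G444E, 99.0 and 99.0 in WT-FLAG, 99.9 and 99.9 in A442M-FLAG and 98.2 and 98.3 in G444E-FLAG. Both regions followed the same order, with every tagged library above every untagged one. At PRPH2 1 number was missing between the flanking peaks of WT replicate 1, and at PITX1 none was missing.

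Of the 25 highest regions, 15 lay inside a gene, 20 had a protein-coding gene end within 100 kb, and 5 were on chromosome 6. Besides those above they lay inside or nearest to SECISBP2L, ELOVL5 (fatty acid elongation), KIF13A (a kinesin motor), DCAF6 (a ubiquitin ligase adaptor), C19orf47, TMEM30A (a flippase subunit), TTLL5 (tubulin glutamylation), AMPD2 (AMP deaminase), PTPN14 (a phosphatase of the Hippo pathway), VEZT (adherens junctions), CDK5RAP1, UBA2 (a subunit of the SUMO-activating enzyme), CTIF, ATXN3L and DHX35. The remaining 2 lay outside genes and beyond 100 kb of a gene end. On own-list percentiles, every tagged library was above every untagged library in 22 of the 25. Over all 2061 regions this held at 540 (26.2%) on own lists and at 411 (19.9%) when ranked against the common regions. A442M-FLAG was the highest group in 23 of the 25 and WT-FLAG in 2. Their lowest percentiles ran from 84.8 to 95.9. WT peaks were 1159 bp (KIF13A) to 58312 bp away, and the WT lists had no missing number around 15 of them, a missing number in 1 list around 8 and in both around 2.

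**Figure D4:**
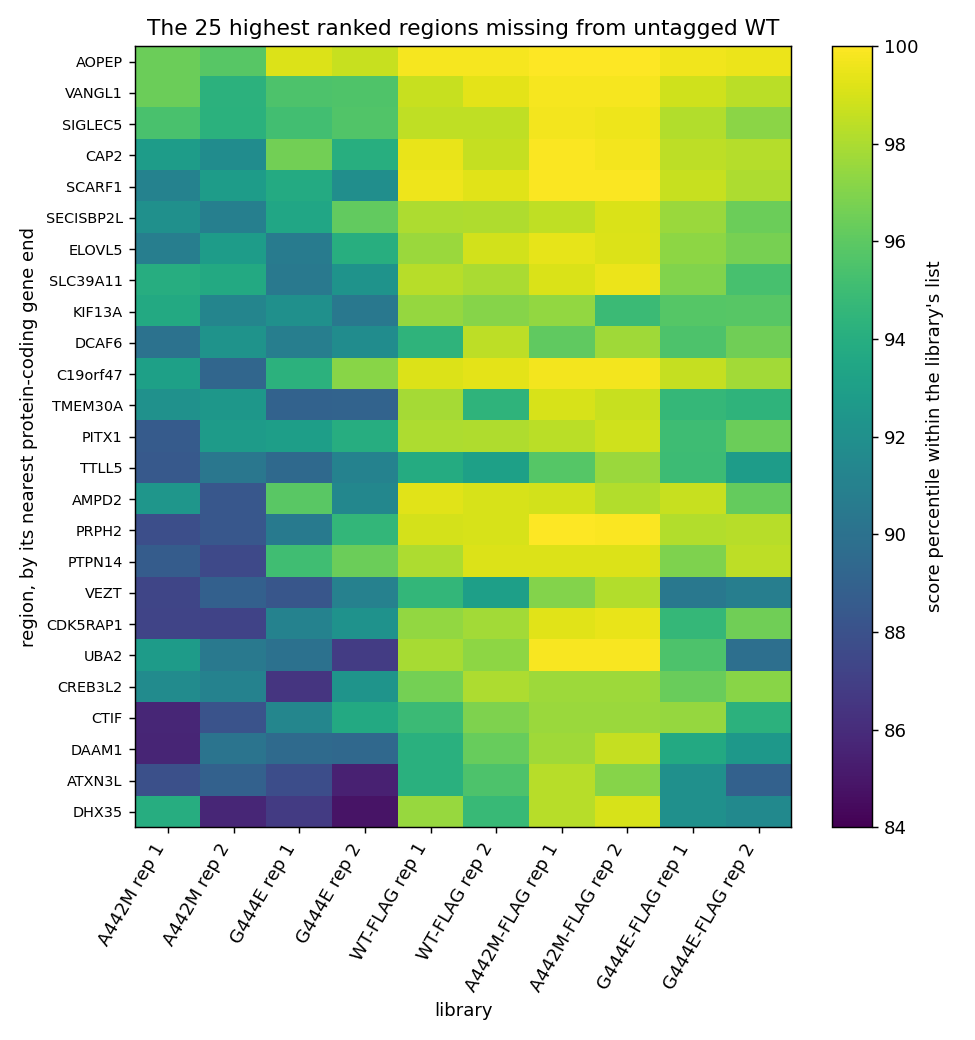
Score percentile within each library's list (colour, 84 to 100) for the 25 regions with the highest lowest percentile, 1 row each, labelled with the closest protein-coding gene whatever its distance, over the 10 calling libraries. In 22 of the 25 rows all 6 tagged libraries are above all 4 untagged ones.

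At the other end, the 5 lowest regions included those near SMYD3 (a lysine methyltransferase), TTLL11 (tubulin glutamylation), LRRC1 and PBRM1 (a subunit of the PBAF chromatin remodeller). The SMYD3 region at chr1:245971283-245972289 had percentiles of 75.7 and 31.7 in A442M, 76.5 and 0.0501 in G444E, 83.8 and 74.3 in WT-FLAG, 95.9 and 85.4 in A442M-FLAG and 89.2 and 42.8 in G444E-FLAG. A single library, G444E replicate 2, put it near the bottom of its list, and A442M-FLAG replicate 1 put it near the top. The LRRC1 region was at or below 57.7 in every library, with percentiles of 10.7 and 25.3 in A442M, 15.5 and 3.48 in G444E, 28.5 and 35.2 in WT-FLAG, 28.5 and 26.7 in A442M-FLAG and 57.7 and 0.0849 in G444E-FLAG.

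Just outside the rule, 1448 regions were called in 9 of the 10 other libraries and in neither WT library, and the library without a peak was an untagged mutant one for 1181 (81.6%) and a tagged one for 267 (18.4%). The highest of these lay near ACER3 (a ceramidase), DDR1 (a collagen receptor kinase) and ANKRD28, where 9 libraries were at or above 77.0, 75.6 and 75.5 and the missing call was in G444E replicate 2, A442M replicate 1 and A442M replicate 2. On the other side, 3 regions that 1 WT library called were strong elsewhere, and weak in that library. The region inside GIN1 was at or above 95.3 in the 10 other libraries and at 32.7 in WT replicate 1. That of RIC8B, a chaperone of G protein subunits, was at or above 93.6 and at 20.7 in WT replicate 1, and a second ANKRD28 region at or above 94.5 and at 26.7 in WT replicate 2.

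The regions were mostly far from gene starts and ends. They were a median of 835 bp wide (quartiles 666 and 1071), beside 902 bp for regions called in all 12 libraries, and covered 1868972 bp. Within 1 kb of a protein-coding gene end lay 55 (2.67%, 2.06% to 3.46%), beside 3.80% of regions called in all 12 libraries and 6.28% of all merged regions. Inside a gene lay 1207 (58.6%, 56.4% to 60.7%), beside 50.9% and 51.9%. Outside genes and over 100 kb from any gene end lay 249 (12.1%), beside 14.9% and 14.5%. Another region of the set was within 10 kb for 123 (5.97%), while 25.5% of the more numerous regions called in all 12 had one of their own.

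They were spread over the chromosomes. Of the regions called in all 10 other libraries, the share absent from WT ran from 10.6% on chromosome 19 (30 of 284, 7.5% to 14.7%) to 17.7% on chromosome 22 (25 of 141, 12.3% to 24.9%). Each chromosome's interval held the genome's 13.6%. None of the 2061 was on a sequence other than the numbered chromosomes, X and Y.

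The 12 regions with the highest lowest percentile among those over promoters were those of SYNRG, BCAR3 (an adaptor linked to antioestrogen resistance), ARHGAP45 (3 windows in 1 region), PCYOX1L, CLASP2 (a microtubule plus-end protein), CTCF, MIR302CHG, DLGAP1-AS6, C3orf36 and 3 uncharacterised loci. The CTCF region, whose promoter is printed above, lay at chr16:67562137-67562898. Its percentiles ran from 31.4 in G444E replicate 2 to 48.8 in A442M-FLAG replicate 1, a narrower spread than the median of 48.4 over all the regions. The SYNRG region at chr17:37609029-37609633 ran from 64.1 in A442M replicate 1 to 92.0 in G444E-FLAG replicate 1, so neither extreme was in A442M-FLAG.

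By gene, 2427 of 20033 protein-coding genes (12.1%) had a region of the set within 50 kb. Longer genes reach more regions, which bears on each count that follows. RAD51B, a recombination repair gene that spans 863 kb, had 6. PALLD (actin scaffold), PTPN3 (a tyrosine phosphatase), SMYD3 and UBE2H (a ubiquitin-conjugating enzyme) had 5 each, and 19 genes had 4, among them AOPEP, ATXN1 and CUBN. Of the genes with a region, 2010 had 1 and 316 had 2.

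Genes were grouped by pathway and by cell type, and no list was tested. The Hippo pathway is a kinase cascade that restrains the coactivators YAP and TAZ, which act through TEAD factors. A list of 21 of its components and of targets of YAP and TAZ was used. A region lay within 50 kb of 8 of them (38.1%, beside 12.1% of all protein-coding genes), the target F3 included. They were TEAD1 (4 regions), F3, STK3, YAP1 and NF2 (2 each), and WWTR1, TEAD4 and STK4. For regions called in all 12 libraries the shares were 81.0% of the Hippo list and 40.6% of all protein-coding genes. At NF2, which encodes an upstream activator of the cascade, the percentiles at chr22:29654066-29654933 were 72.2 and 76.4 in A442M, 76.4 and 67.4 in G444E, 92.1 and 94.1 in WT-FLAG, 97.9 and 98.0 in A442M-FLAG and 87.8 and 92.8 in G444E-FLAG. Tagged libraries were all above untagged ones there.

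Of 16 basal breast genes 5 had a region (31.3%, beside 12.1% of all genes), ITGA6, TP63, EGFR, CDH3 and LAMA3 (2). Near the growth factor receptor gene EGFR, at chr7:54994166-54995130, the percentiles were 71.8 and 63.7 in A442M, 70.3 and 62.1 in G444E, 88.7 and 87.4 in WT-FLAG, 94.7 and 91.3 in A442M-FLAG and 86.7 and 75.9 in G444E-FLAG, with WT peaks 829 and 850 bp away. Near TP63, a p53 family regulator of basal cells, at chr3:189909522-189910574, they were 63.8 and 61.8 in A442M, 32.7 and 50.9 in G444E, 56.1 and 58.7 in WT-FLAG, 80.9 and 88.1 in A442M-FLAG and 37.3 and 46.2 in G444E-FLAG, with WT peaks 572 and 529 bp away. At EGFR the tagged libraries were above the untagged, and at TP63 they overlapped. Of 24 luminal genes 5 had a region (20.8%), the keratins KRT8 and KRT18, the junction genes CDH1 and CLDN4, and GREB1, an oestrogen-induced cofactor. The lowest percentiles of these luminal regions were 21.9 (GREB1), 11.1 (KRT8 and KRT18), 10.3 (CLDN4) and 2.38 (CDH1). Among the basal regions they were 62.1 (EGFR), 51.1 (1 of the 2 at LAMA3), 32.7 (TP63) and 6.98 (ITGA6). Neighbouring genes can be counted through 1 region: KRT8 and KRT18 shared theirs, and CDH1 of the luminal list shared its region with CDH3 of the basal list. Of 18 mesenchymal genes 5 had a region (27.8%), S100A4, COL5A1 (2), ZEB1, CD44 and COL1A1.

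Of 13 genes of the GATA family and its cofactors, TRPS1 (2), ZFPM2 and RUNX1 had a region (23.1% beside the 12.1% of all genes), and GATA3 had none. Regions called in all 12 libraries lay near 69.2% of this list. TRPS1 is an atypical GATA factor of luminal cells that represses transcription. The stronger of its regions, at chr8:115691436-115692540, had percentiles of 59.9 and 78.3 in A442M, 62.2 and 71.2 in G444E, 85.7 and 95.1 in WT-FLAG, 97.8 and 98.3 in A442M-FLAG and 80.2 and 85.4 in G444E-FLAG. The tagged libraries were above the untagged ones. The region in RUNX1, at chr21:34812302-34812907, was at or below 38.0 in every library and was not ordered by tag, with percentiles of 15.0 and 19.4 in A442M, 27.4 and 30.2 in G444E, 35.2 and 29.0 in WT-FLAG, 22.2 and 23.0 in A442M-FLAG and 38.0 and 10.1 in G444E-FLAG.

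The TGF-beta list gave 3 of 15 (TGFBR3, TGFBR2 with 2, and SMAD3) and the ubiquitin and proteasome list 5 of 18 (among them PSMD1, FBXW7, BTRC with 2, and PSMA1), beside 80.0% and 44.4% with a region called in all 12 libraries. Among genes of other lineages the counts were 2 of 16 T cell genes (IL5 and CD4), 2 of 17 erythroid genes (NFE2 and EPB42), 1 of 15 neuronal genes (SYN1), 0 of 15 skeletal muscle genes and 1 of 14 housekeeping genes (PPIA). The regions counted for CD4, NFE2, EPB42, SYN1 and PPIA lay over 10 kb from these genes. Their nearest gene ends were those of MLF2, COPZ1, TMEM62, ELK1 and H2AZ2, in that order. Within this group IL5, the eosinophil cytokine gene that GATA3 is known to activate in T cells, had percentiles of 80.0 and 80.5 in A442M, 76.7 and 71.0 in G444E, 87.6 and 92.0 in WT-FLAG, 93.1 and 95.2 in A442M-FLAG and 80.5 and 87.1 in G444E-FLAG at chr5:132549489-132550311. G444E-FLAG replicate 1 was level with the A442M libraries there, and the other 5 tagged libraries were higher. Regions called in all 12 libraries lay near 81.3% of the basal, 72.2% of the mesenchymal and 62.5% of the luminal list. They lay near 46.7% of the neuronal, 42.9% of the housekeeping, 37.5% of the T cell, 20% of the skeletal muscle and 17.6% of the erythroid list.

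**Figure D5:**
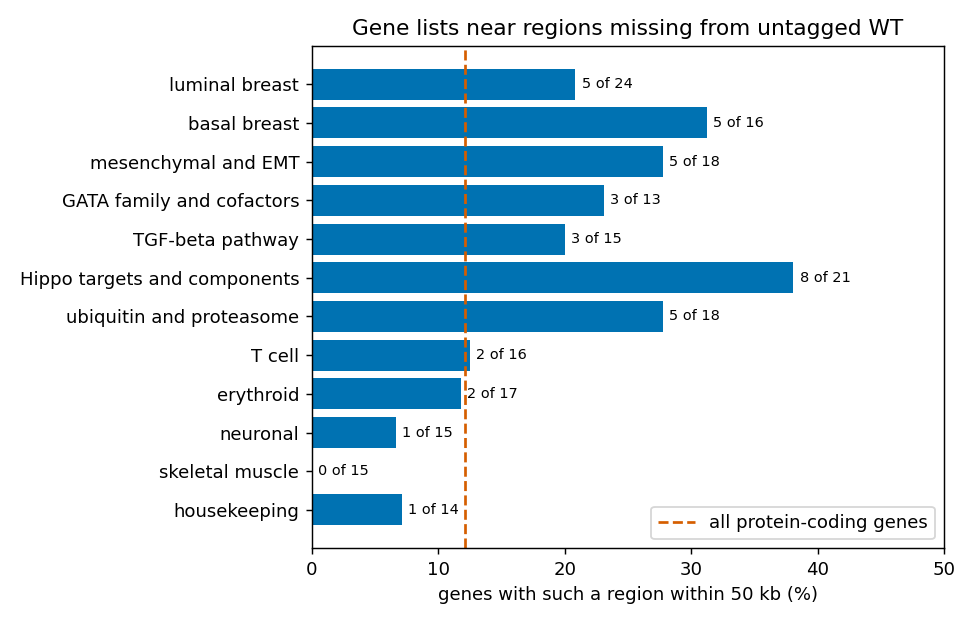
Share of the genes of each list with 1 or more of the 2061 regions within 50 kb, with the counts beside the bars. The dashed line is the 12.1% of all protein-coding genes, the T cell list at 12.5% is just beyond it, the erythroid, neuronal, skeletal muscle and housekeeping lists are short of it, and the other 7 lists are at 20% or more.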

How the data were processed

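The authors called GATA3 ChIP-seq peaks separately in each of the 12 libraries, with MACS2 2.1.4 on hg38 per the submitters' processing notes, which also name FastQC. The aligner, the control, the filters and the depth were not given in the sources used here. A deposited list has 5 columns without a header, and its peak score, at least 5.00, comes from the authors on an unnamed scale, so it served for ranks and thresholds within 1 list only. No counts came with the lists.

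Peaks were merged with Python 3.11.15 and pandas 2.3.3 at 1 bp overlap. Percentiles took a region's highest score in a library. Shares carry 95% Wilson intervals (SciPy 1.17.1), which cover counting error only. No test between groups was made, because the calls chose the regions. The merging was tested on simulated lists. Genes and 300-base promoter windows came from RefSeq GRCh38.p14, which holds the same chromosome coordinates as hg38.

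A region took its name from the closest end of a protein-coding gene, up to 100 kb away. Named were the 25 highest and 5 lowest by the lowest percentile, up to 8 genes with the most regions, up to 4 regions per gene list, 12 over promoters, and the 3 highest just outside the rule on each side. Some regions that this rule selects are not reported here. The regions, lists and rules were chosen with earlier results of these data known. Alternatives were a score of at least 10, lists of equal length, calls covering 50% of a region, other distances, each library left out and, added after seeing the data, libraries compared within a replicate number. Samples with an empty vector (2) were not analysed here.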

Additional observations from a re-analysis of the deposited data

How the results depend on the processing

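With a score of at least 10, the set had 1887 regions, and 1325 of them overlapped the 2061. The share with an untagged WT peak within 1 kb was then 2.65% and with a missing WT peak number 35.0%. Only WT peaks that met this score were counted as near, so WT peaks of lower score may lie in or beside these regions. Regions absent from A442M and G444E alone numbered 2 and 42, and the replicate sets shared 40.1% and 47.1%. With lists of equal length the set had 1162 regions, and the shares were 2.58% and 34.8%, WT peaks that the trimming removed again not being counted as near. The counts were 15 for A442M, 15 for G444E, 5 for WT-FLAG and 492 for A442M-FLAG, and the replicate sets shared 43.5% and 40.3%. With calls covering 50% of a region the set had 1354 regions, 78.1% with a WT peak within 1 kb, 29.3% with a missing number and 54.4% inside genes. A WT peak covering under 50% of a region was not a call here. Regions with no WT peak inside all belong to the 2061, of which only 77 had a WT peak within 1 kb. Most of the 1354 therefore held a WT peak and lay outside the 2061. The counts were 34 for G444E, 0 for WT-FLAG and 12 for G444E-FLAG. At 5 kb in place of 1 kb, 25.04% had a WT peak near and 12.1% a gene end. At 10 kb, 1271 genes had a region near, 6 of them on the Hippo list, 4 on the ubiquitin and proteasome list, 3 each on the basal, luminal and TGF-beta lists and 2 on the mesenchymal list. The GATA family and T cell lists then had 1 each, and the erythroid, neuronal, skeletal muscle and housekeeping lists had 0. Ranked among regions called in all 12 libraries, the group medians were 9.70, 18.5, 31.7, 54.3 and 25.01 for A442M, G444E, WT-FLAG, A442M-FLAG and G444E-FLAG. Leaving out 1 library at a time, the set had 2078 to 3313 regions (3313 without WT replicate 1 and 2921 without WT replicate 2), with 2.99% to 3.98% having a WT peak within 1 kb, 23.8% to 40.4% a missing number, 2.55% to 3.53% a gene end within 1 kb and 57.7% to 58.7% inside genes. Without a WT library, only the other WT list could hold a near peak or a missing number, and the latter was found for 23.8% and 27.3%. The runs that kept both WT lists gave a missing number for 39.2% to 40.4%. WT had the highest count of regions absent from 1 group alone under all of these settings at which the groups were counted. With the replicate number as a block, a comparison added after seeing the data, the shares of regions ranked higher went from 89.0% to 94.4% for A442M-FLAG over A442M, 32.9% to 50.7% for G444E-FLAG over G444E, 63.6% to 76.3% for A442M-FLAG over WT-FLAG and 46.1% to 60.7% for G444E over A442M, and the easier condition can only raise them. Depth is unknown, so an absent call cannot be told apart from a shallow library.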
